A study of Mus musculus with 9 samples.

Results

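Satellite glial cells wrap the cell bodies of sensory neurons, and 9 genes known to be used by them were followed in the trigeminal ganglion (TG) of mice with an inflamed jaw joint. They were Fabp7, Glul, Gja1, Apoe, Slc1a3, Gfap, Ednrb, S100b and Sox10. Members were found by gene name. Every transcript of the mRNA table was assigned to its GENCODE M21 gene, and the FPKM (fragments counted on a transcript, divided by its length and by the depth of the library) of a gene's transcripts were added up. This gave 9 of 21809 gene sums, and all 9 passed the filter on low values (0.1 FPKM or more on average over the libraries) that 16096 gene sums passed.

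The mice were wild-type (WT) male C57BL/6 animals of 8 weeks, and all were anaesthetised with isoflurane for an injection of 10 µl into the temporomandibular joint (TMJ) on one side. The Saline group received saline and carried the label of day 3. The CFA3D and CFA6D groups received complete Freund's adjuvant (CFA, 5 mg/ml), an oil emulsion of killed mycobacteria that inflames the joint, and were taken on day 3 and on day 6. Each group held 3 libraries of total RNA, each a pool of unilateral TG punches from 3 mice, so a library averaged over animals and n was 3 pools a group. No saline library of day 6 was analysed here, so for CFA6D the treatment and the 3 further days cannot be told apart. CFA3D and CFA6D were both set against the same saline libraries.

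Satellite glial cells form an envelope around each sensory neuron and are joined to one another by gap junctions. They take up glutamate and potassium from the narrow space around the neuron, turn glutamate into glutamine, and supply lipids. After nerve injury or peripheral inflammation they are known to couple more strongly and to gain the filament protein Gfap, which is why these genes are read as signs of glial reaction in facial pain models. Several of the 9 genes are not private to these cells. Sox10 and S100b are also used by Schwann cells, and Gfap, Gja1, Slc1a3, Glul and Apoe by the astrocytes of the brainstem, whose tissue enters the trigeminal root. These lists are not complete, so no member can be taken as free of the RNA of other cells.

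All 9 genes were detected in every library. By mean FPKM their ranks among the 16096 gene sums ran from 45 for Apoe to 6119 for Ednrb, and Fabp7 ranked 527. The ganglion also showed its neurons, with a mean over 9 libraries of 605 FPKM for the neuronal tubulin Tubb3. The depth behind the FPKM values was inferred from the size of their smallest steps, at 30.1 to 42.5 M read pairs a library. It is an estimate and not the number of reads sequenced, which the study gave as totals by group. At that depth the member with the fewest reads in any library still had about 615 read pairs, a counting error of 4.03%, so the spread between pools and not the counting limited the comparisons. Among all gene sums, 18.1% were lowest in CFA6D replicate 4, beside 19.3% in Saline replicate 3 and 19% in Saline replicate 2. CFA6D replicate 4 stood apart from the other libraries in other values. It had the lowest value of 6 of the 9 members, 12 of 13 markers of brainstem glia were lowest in it, and the FPKM of its lncRNA table summed to 70257 against 8151 to 8911 in the others, with 1 predicted transcript at 62081 FPKM. Saline replicate 3 had the highest level of brainstem glia markers and 9120 FPKM of the pituitary hormone gene Gh, against 5.10 to 742 FPKM elsewhere. The members and the gene lists were therefore also fitted without these 2 libraries.

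The start regions of 5 members are shown because they carry the contrasts described below: Fabp7 and S100b were lower on CFA6D than on CFA3D in every library, and Gfap, Gja1 and Slc1a3 were far lower in 1 library than in the other 8. Each window runs from 250 bases before to 30 bases after the RefSeq start site (GRCm38.p6), 5′ to 3′ on the gene's own strand, and capitals mark the letters of the motifs searched.
Fabp7, chr10:57784673-57784952, plus strand: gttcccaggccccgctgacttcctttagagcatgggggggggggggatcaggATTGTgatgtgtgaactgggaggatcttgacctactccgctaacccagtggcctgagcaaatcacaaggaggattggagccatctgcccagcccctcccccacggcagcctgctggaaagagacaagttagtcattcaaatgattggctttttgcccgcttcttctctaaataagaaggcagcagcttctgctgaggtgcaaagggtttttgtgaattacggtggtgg
S100b, chr10:76253586-76253865, plus strand: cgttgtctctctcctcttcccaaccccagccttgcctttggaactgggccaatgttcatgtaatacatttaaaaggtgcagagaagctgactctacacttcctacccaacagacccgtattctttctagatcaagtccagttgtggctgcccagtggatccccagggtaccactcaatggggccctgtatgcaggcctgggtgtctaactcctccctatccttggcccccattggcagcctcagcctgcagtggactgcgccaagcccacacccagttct
Gfap, chr11:102897171-102897450, minus strand: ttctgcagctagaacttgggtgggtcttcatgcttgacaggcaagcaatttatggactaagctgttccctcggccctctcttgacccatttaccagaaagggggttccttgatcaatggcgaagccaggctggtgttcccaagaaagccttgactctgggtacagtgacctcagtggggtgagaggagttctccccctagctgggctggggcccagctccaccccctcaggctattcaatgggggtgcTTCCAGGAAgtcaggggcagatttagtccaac
Gja1, chr10:56377050-56377329, plus strand: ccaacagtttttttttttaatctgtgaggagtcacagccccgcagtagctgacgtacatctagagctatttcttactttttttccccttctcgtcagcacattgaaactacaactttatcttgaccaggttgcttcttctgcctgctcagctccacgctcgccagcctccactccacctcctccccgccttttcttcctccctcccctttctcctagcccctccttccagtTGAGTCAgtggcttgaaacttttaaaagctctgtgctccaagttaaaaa
Slc1a3, chr15:8710778-8711057, minus strand: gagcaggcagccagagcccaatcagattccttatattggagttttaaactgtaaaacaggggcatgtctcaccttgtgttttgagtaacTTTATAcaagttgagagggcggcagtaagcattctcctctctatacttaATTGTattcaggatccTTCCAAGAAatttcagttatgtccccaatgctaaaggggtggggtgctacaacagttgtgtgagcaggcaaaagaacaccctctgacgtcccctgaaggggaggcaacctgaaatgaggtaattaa
The RefSeq starts lay 17 to 69 bases from the start of the most abundant protein-coding transcript of these 5 genes in GENCODE M21. Windows were found for 8 of the 9 members, and Sox10 had none in the table.

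The letters searched, on both strands, were ACAAAG and ACAAT for SOX factors such as Sox10, TTCNNNGAA for STAT factors, TGANTCA for AP-1, and TATAAA. Fabp7 and Slc1a3 each held ACAAT once, 198 and 112 bases before the start. Apoe held ACAAT and ACAAAG in 1 of its windows, 144 and 54 bases before the start. ACAAT was present in 29.8% and ACAAAG in 17.9% of all 32851 windows, so these letters are common. TTCNNNGAA was present in Gfap from 2 bases before the start and in Slc1a3 from 96 bases before it, and in 7.83% of all windows. Gja1 held TGANTCA 19 bases before its start, as 7.46% of windows did. TATAAA was found in Slc1a3 and Apoe and in 13.1% of windows. These are matches of letters and no binding was measured.

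In saline ganglia the FPKM levels of the members spanned from Apoe, with a mean of 373 FPKM, to Ednrb, with 9.09 FPKM. Apoe was followed by S100b with 218 FPKM and Glul with 211 FPKM, whose libraries overlapped. Gfap came next with 86.0 FPKM and Fabp7 with 66.3 FPKM, and these also overlapped. Sox10 had 38.1 FPKM and Gja1 had 17.9 FPKM, each apart from its neighbours in the order. Slc1a3, with 9.18 FPKM, and Ednrb could not be ranked, since their libraries overlapped.

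**Figure D1:**
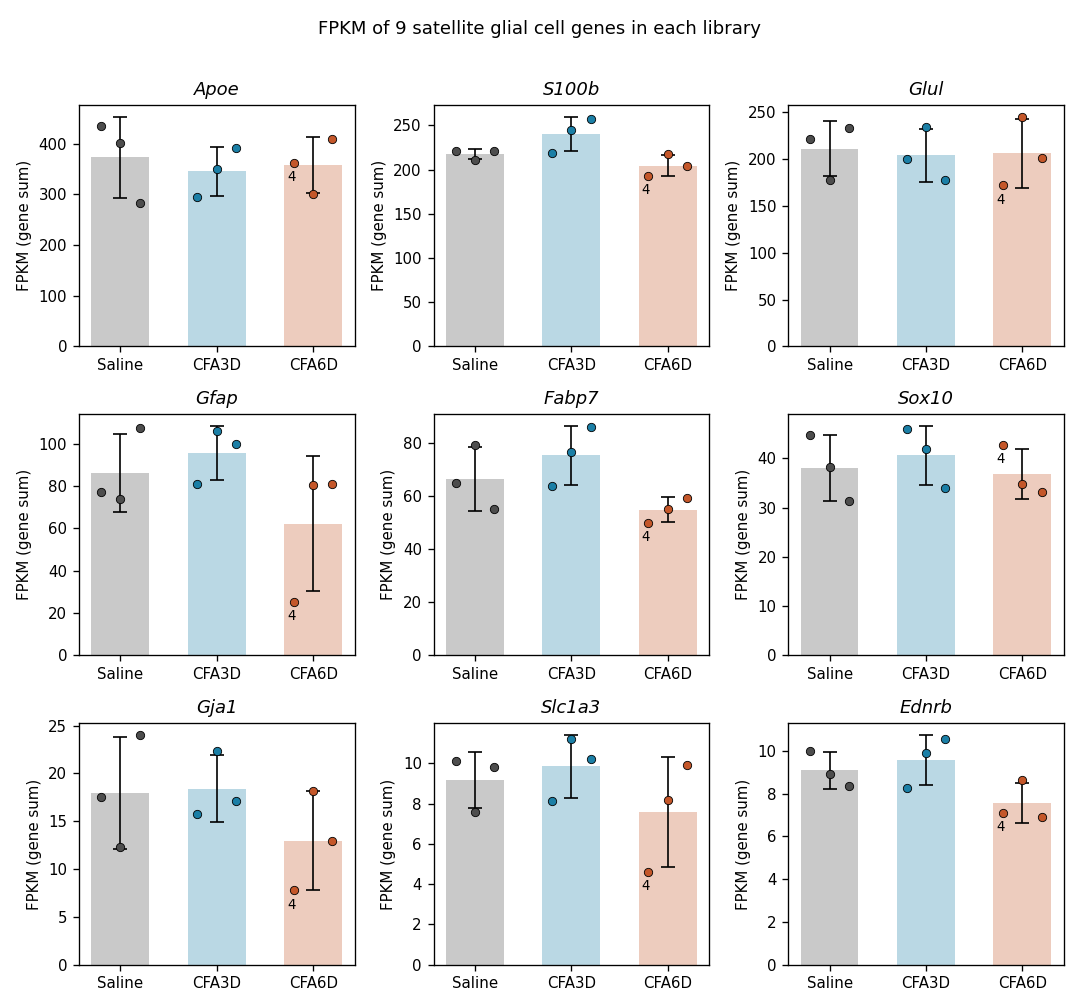
FPKM (gene sum, y axis from 0) of each satellite glial cell gene in the 3 libraries of Saline, CFA3D and CFA6D. Points are libraries, bars are group means, lines are ± 1 SD (n = 3 pools), and the number 4 marks CFA6D replicate 4. Gfap fell to 25.3 FPKM in that library, while its other 8 libraries lay between 73.6 and 107 FPKM.

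A gene was called, and is said to have risen or fallen, where the unadjusted p of limma, a linear model fitted across all gene sums, was under 0.05. The adjusted p given with a value is the Benjamini-Hochberg one over all gene sums, or over all transcripts for a transcript, and it was above 0.05 for every gene and transcript called here.

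Fabp7 is a carrier of fatty acids in glia and glial precursors. It had 64.8, 79.1 and 55.0 FPKM in Saline replicates 1 to 3, 63.6, 76.5 and 85.9 FPKM in CFA3D replicates 1 to 3, and 49.98, 55.2 and 59.4 FPKM in CFA6D replicates 4 to 6. All 3 CFA6D libraries lay below all 3 CFA3D libraries, whereas both CFA groups overlapped saline. On CFA6D the level was 26.7% below that on CFA3D (95% interval -41.9% to -7.59%, log2 fold change -0.45, SE 0.15, limma adjusted p = 0.632). Against saline the log2 fold change was 0.19 on CFA3D (adjusted p = 0.997 in limma) and -0.26 on CFA6D (adjusted p = 0.564).

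Apoe, the other lipid carrier, is a secreted apolipoprotein that hands cholesterol to neighbouring cells. Its levels were 436, 401 and 282 FPKM in the saline libraries, 296, 349 and 391 FPKM on CFA3D, and 362, 301 and 410.0 FPKM on CFA6D. The 3 groups lay over one another, and the fitted differences were -0.10, -0.05 and 0.05 on the log2 scale for CFA3D against saline, CFA6D against saline and CFA6D against CFA3D, with a 95% interval for CFA6D against saline from -28.0% to 29.8%.

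Slc1a3 encodes GLAST, which clears glutamate from around the neuron. It had 10.1, 7.56 and 9.84 FPKM in saline, 8.12, 11.2 and 10.2 FPKM on CFA3D, and 4.60, 8.20 and 9.94 FPKM on CFA6D. CFA6D replicate 4 held the lowest value, and the other 2 CFA6D libraries were within the range of saline. The log2 fold change was 0.10 on CFA3D and -0.33 on CFA6D against saline, neither past the threshold (limma adjusted p = 0.997 on CFA3D and adjusted p = 0.69 on CFA6D).

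Glul, glutamine synthetase, turns that glutamate into glutamine. Its levels were 222, 178 and 234 FPKM in saline, 200.5, 235 and 178 FPKM on CFA3D, and 172, 246 and 202 FPKM on CFA6D. The lowest and the highest of the 9 libraries were both CFA6D libraries. Differences between groups were the smallest in the set, at -0.05, -0.04 and 0.01 on the log2 scale, and the 95% interval of CFA6D against saline ran from -24.4% to 25.4%.

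Gja1 encodes connexin 43, the channel protein of the gap junctions between glial cells. It had 17.5, 12.3 and 24.0 FPKM in saline, 15.7, 22.4 and 17.1 FPKM on CFA3D, and 7.76, 18.1 and 12.97 FPKM on CFA6D. Saline libraries alone spread over a CV of 32.8%, and only CFA6D replicate 4 lay below them. The log2 fold change on CFA6D was -0.50 against saline (SE 0.32, adjusted p = 0.615 in limma) and -0.57 against CFA3D (adjusted p = 0.704).

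Gfap, the intermediate filament protein of reactive glia, had 77.3, 73.6 and 107 FPKM in saline, 81.1, 106 and 99.7 FPKM on CFA3D, and 25.3, 80.5 and 81.0 FPKM on CFA6D. The CFA6D libraries lay below those of CFA3D, by 0.11 FPKM at the closest pair. The value of CFA6D replicate 4 was 31.2% of the median of the other 8 libraries. The log2 fold change was 0.16 on CFA3D (limma adjusted p = 0.997) and -0.63 on CFA6D (adjusted p = 0.605) against saline, and -0.79 on CFA6D against CFA3D (SE 0.39, adjusted p = 0.685). The 95% interval on CFA3D ran from -39.3% to 107%. The fit shares its spread across the 3 groups, so CFA6D replicate 4 entered this interval. Without that library the SE on CFA3D against saline was 0.155, beside 0.393 with all libraries.

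Ednrb is the endothelin B receptor. It had 10.0, 8.91 and 8.35 FPKM in saline, 8.27, 9.93 and 10.6 FPKM on CFA3D, and 7.10, 8.63 and 6.93 FPKM on CFA6D. CFA6D libraries were lower than most others, with replicate 5 inside the range of CFA3D. The level on CFA6D was 21.0% below that on CFA3D (log2 fold change -0.34, SE 0.13, limma adjusted p = 0.641) and 16.9% below saline (log2 fold change -0.27, adjusted p = 0.491).

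S100b, a calcium-binding protein of glia, varied least. It had 221, 211 and 221 FPKM in saline, 219, 245 and 258 FPKM on CFA3D, and 193, 217 and 204 FPKM on CFA6D. All 3 CFA6D libraries lay below all 3 CFA3D libraries, and the CV over the 9 libraries was 8.93%. The level on CFA6D was 14.8% below that on CFA3D (log2 fold change -0.23, SE 0.09, limma adjusted p = 0.651), with 0.14 on CFA3D and -0.09 on CFA6D against saline on the log2 scale.

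Sox10 is the transcription factor that keeps glial identity in cells of the neural crest. It had 44.7, 38.3 and 31.3 FPKM in saline, 45.9, 41.8 and 34.0 FPKM on CFA3D, and 42.7, 34.7 and 33.2 FPKM on CFA6D. The groups overlapped throughout, with log2 fold changes of 0.10, -0.04 and -0.14 for CFA3D against saline, CFA6D against saline and CFA6D against CFA3D. In CFA6D replicate 4 it reached 117% of the median of the other libraries, so the low library for Gfap was not low for Sox10.

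Read as a group, the members did not differ from saline at either time by the threshold of an unadjusted p under 0.05. On CFA3D 0 of 9 passed it, against 4.45% of all gene sums, and the median log2 fold change was 0.10 beside 0.05 over all gene sums. Leaving out 1 library moved this median between 0.043 (without CFA3D replicate 2) and 0.18 (without CFA3D replicate 1). On CFA6D 0 of 9 passed it, against 11.1% of all gene sums. All 9 fitted log2 fold changes were below 0 on CFA6D, as were 45.6% of all gene sums, and the median was -0.26 beside 0.03. In no comparison did a member reach a log2 fold change of 1 in size with an unadjusted p under 0.05, which 0.342% of gene sums did on CFA3D, 0.584% on CFA6D and 0.77% between the CFA times.

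Between the CFA times, 3 of 9 members fell at an unadjusted p under 0.05, which were Fabp7, Ednrb and S100b. The share was 4.34% among all gene sums in that direction and 7.39% in either direction, and 0 of 9 members were higher, where 3.06% of all gene sums were. No member passed Benjamini-Hochberg adjustment in limma in any comparison, and neither did any of the 16096 gene sums, of which 717, 1781 and 1190 had an unadjusted p under 0.05 on CFA3D, on CFA6D and between them. Libraries did not overlap for Fabp7, Gfap and S100b, each lower on CFA6D, where 10.1% of all gene sums were lower without overlap. The median log2 fold change of the members was -0.34 beside -0.02 over all gene sums. With 3 libraries against 3, an exact permutation test of a single gene cannot go below p = 0.1, so calls rest on the spread that limma shares across genes.

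**Figure D2:**
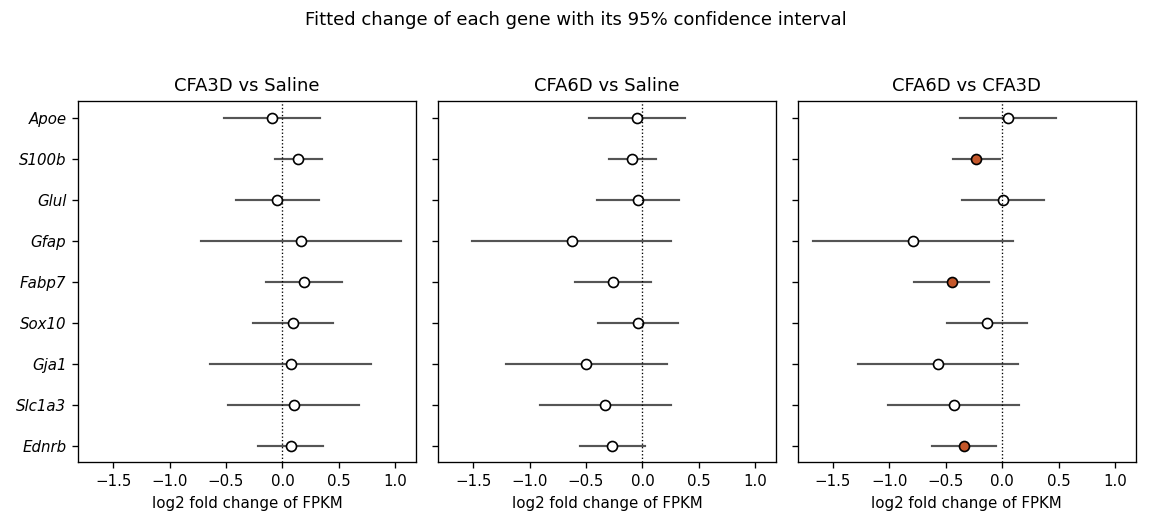
Fitted log2 fold change of FPKM (x axis) for each gene in the 3 comparisons, with lines for the 95% confidence interval from limma and filled points for an unadjusted p under 0.05. The filled points are Fabp7, Ednrb and S100b on CFA6D against CFA3D, and every interval in the comparisons with saline spans 0.

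Leaving out 1 library at a time moved some of these values across the threshold. Fabp7 lost its call only without CFA3D replicate 3, where its log2 fold change was -0.35. Ednrb lost its call without CFA3D replicate 2, CFA3D replicate 3, CFA6D replicate 4 or CFA6D replicate 6, with log2 fold changes of -0.31, -0.27, -0.30 and -0.28 beside -0.34 with all libraries. S100b lost its call without any of the same 4 libraries, with log2 fold changes of -0.22, -0.18, -0.19 and -0.23 beside -0.23. In the other direction, leaving out a CFA6D library that was near saline brought further calls. They were for Gja1, Gfap and Slc1a3, which were lowest in CFA6D replicate 4, and for Ednrb, which was lowest in CFA6D replicate 6. Without CFA6D replicate 5, Gja1 (-0.85) and Gfap (-1.07) passed against CFA3D, and Gja1 (-0.78) and Ednrb (-0.37) passed against saline. Without CFA6D replicate 6, Slc1a3 (-0.66) and Gfap (-1.07) passed against CFA3D, and Slc1a3 (-0.56) and Gfap (-0.91) passed against saline. Without Saline replicate 3, Fabp7 passed on CFA6D against saline (log2 fold change -0.39, limma adjusted p = 0.379). Over these settings the share of all gene sums called was 8.92% to 12.4% on CFA6D and 5.05% to 8.39% between the CFA times.

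CFA6D replicate 4 set much of the low level of Gfap, Gja1 and Slc1a3 on CFA6D, and its part differed among the other members. In this library Gfap stood at 31.2%, Gja1 at 44.8% and Slc1a3 at 46.5% of the median of the other 8 libraries. Fabp7 at 77.9%, Glul at 81.2% and S100b at 87.7% were the other members with their lowest value there. Thus 6 of 9 members (66.7%) had their lowest value in CFA6D replicate 4, against 18.1% of all gene sums tested. Apoe at 97.8%, Ednrb at 81.0% and Sox10 at 117% lay within the range of the others. Without this library, the log2 fold changes on CFA6D against saline became -0.07 for Gfap, -0.17 for Gja1, -0.01 for Slc1a3 and 0.09 for Glul, and the median of the members moved from -0.26 to -0.07. Ednrb then had -0.23 beside -0.27 with all libraries, Sox10 had -0.15 beside -0.04, Apoe had -0.06 beside -0.05 and S100b had -0.05 beside -0.09. Glul alone was above 0. Against CFA3D the median moved from -0.34 to -0.23. Fabp7 then differed from saline by -0.19 and from CFA3D by -0.38, the only member still past the threshold between the CFA times (adjusted p = 0.792).

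**Figure D3:**
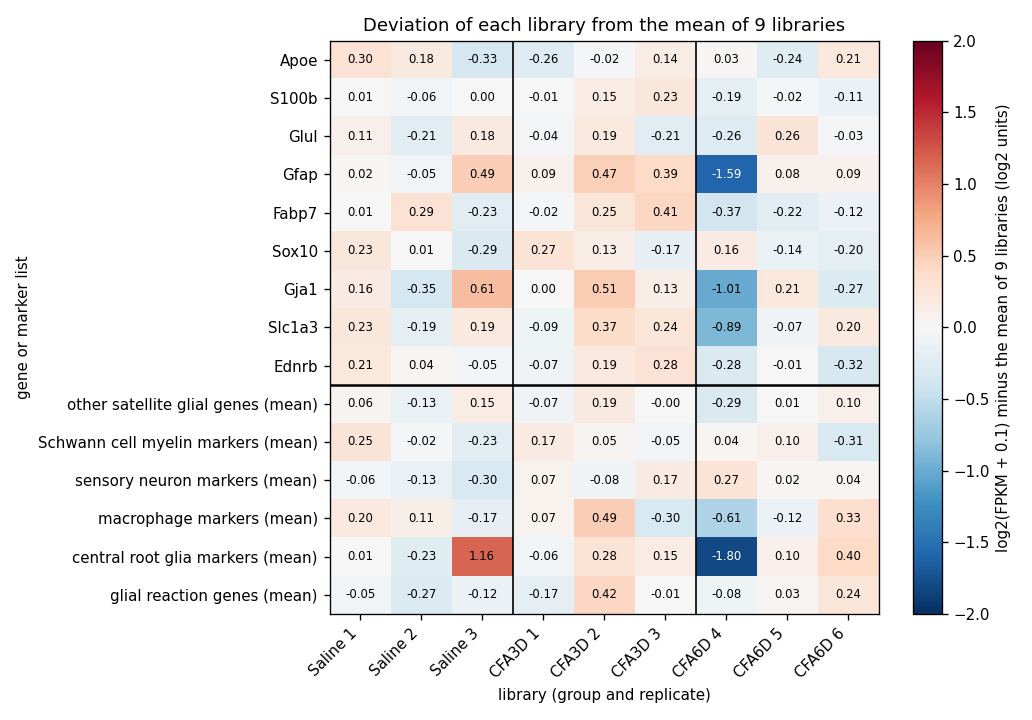
Deviation of each library (columns) from the mean of 9 libraries on the log2(FPKM + 0.1) scale, for the 9 genes (above the line) and for the mean of each marker list (below it). CFA6D replicate 4 has -1.59 for Gfap, -1.01 for Gja1, -0.89 for Slc1a3 and -1.80 for the central root glia markers, and Saline replicate 3 has 1.16 for those markers.

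Markers of the astrocytes and oligodendrocytes of the central root moved with the same libraries. The list held 13 genes (Aqp4, Aldh1l1, Slc7a10, Slco1c1, Gjb6, Olig1, Olig2, Mog, Mobp, Opalin, Ermn, Hapln2 and Nkx6-2), and 12 of them were lowest in CFA6D replicate 4. The oligodendrocyte myelin gene Mog had 1.82 FPKM there against a median of 15.9 FPKM in the other 8 libraries, and Mobp had 21.5 FPKM against 176 FPKM. None of the 13 was at 0 in that library, and the lowest was Opalin with 0.0091 FPKM. The summed level of the list ranged from 174 to 463 FPKM in saline, from 219 to 268 FPKM on CFA3D and from 40.2 to 301 FPKM on CFA6D. Neurons moved the other way, with 10 of 14 sensory neuron markers highest in CFA6D replicate 4. Their summed level was 2671 to 3335 FPKM in saline, 3156 to 3771 FPKM on CFA3D and 3333 to 4026 FPKM on CFA6D. Of all 16096 gene sums, 1695 were highest in that library, as were 4 of 14 Schwann cell myelin markers. Of 20 other satellite glial genes 5 were lowest in that library, as were 2 of 14 Schwann cell myelin markers, beside 18.1% of all gene sums. In bulk tissue, fewer cells of a type and less RNA per cell cannot be told apart, and the part of brainstem glia in the low values of Gfap, Gja1 and Slc1a3 was not tested.

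Across the 9 libraries, the level of 3 members followed the mean log2 level of the 13 central root glia markers. Gfap had a Pearson r of 0.93 (exact permutation p = 0.00227, adjusted over 9 relations p = 0.0204) and a Spearman rho of 0.82 (permutation p = 0.0108, adjusted p = 0.0969). Slc1a3 had an r of 0.87 (exact permutation p = 0.0105, adjusted p = 0.0314) and a rho of 0.68 (p = 0.0503, adjusted p = 0.113 by permutation). Gja1 had an r of 0.87 (exact permutation p = 0.00456, adjusted p = 0.0205) and a rho of 0.70 (p = 0.0433, adjusted p = 0.113 by permutation). Without the 2 libraries farthest from the median of the marker level, CFA6D replicate 4 and Saline replicate 3, r was 0.55 for Gfap, 0.74 for Slc1a3 and 0.33 for Gja1, so the relation of Gja1 and part of that of Gfap rested on those libraries. The other members had an r of 0.63 (Glul), 0.49 (S100b), 0.31 (Ednrb), 0.23 (Fabp7), -0.27 (Apoe) and -0.56 (Sox10), none past an adjusted permutation p of 0.05. With the group means removed, so that only differences within groups counted, r was 0.96 for Gfap, 0.87 for Slc1a3 and 0.86 for Gja1 over the 9 libraries. In an exact permutation of libraries within groups, Gfap had p = 0.00463, the smallest that 216 permutations can give (adjusted over 9 relations p = 0.0417). Slc1a3 had an adjusted p = 0.0625 and Gja1 an adjusted p = 0.111 in the same exact permutation test, above 0.05. Sox10 had an r of -0.73 within groups (exact permutation, adjusted p = 0.115). This alternative was chosen after seeing the data. CFA6D replicate 4 and Saline replicate 3 stayed in it, with mean log2 marker levels of 0.38 and 3.34 against 1.95 to 2.59 in the other libraries. It therefore cannot show whether the relation holds without them. Aqp4, Gjb6 and Aldh1l1 are used by ganglion glia as well, and the list was chosen with the values of these libraries known.

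**Figure D4:**
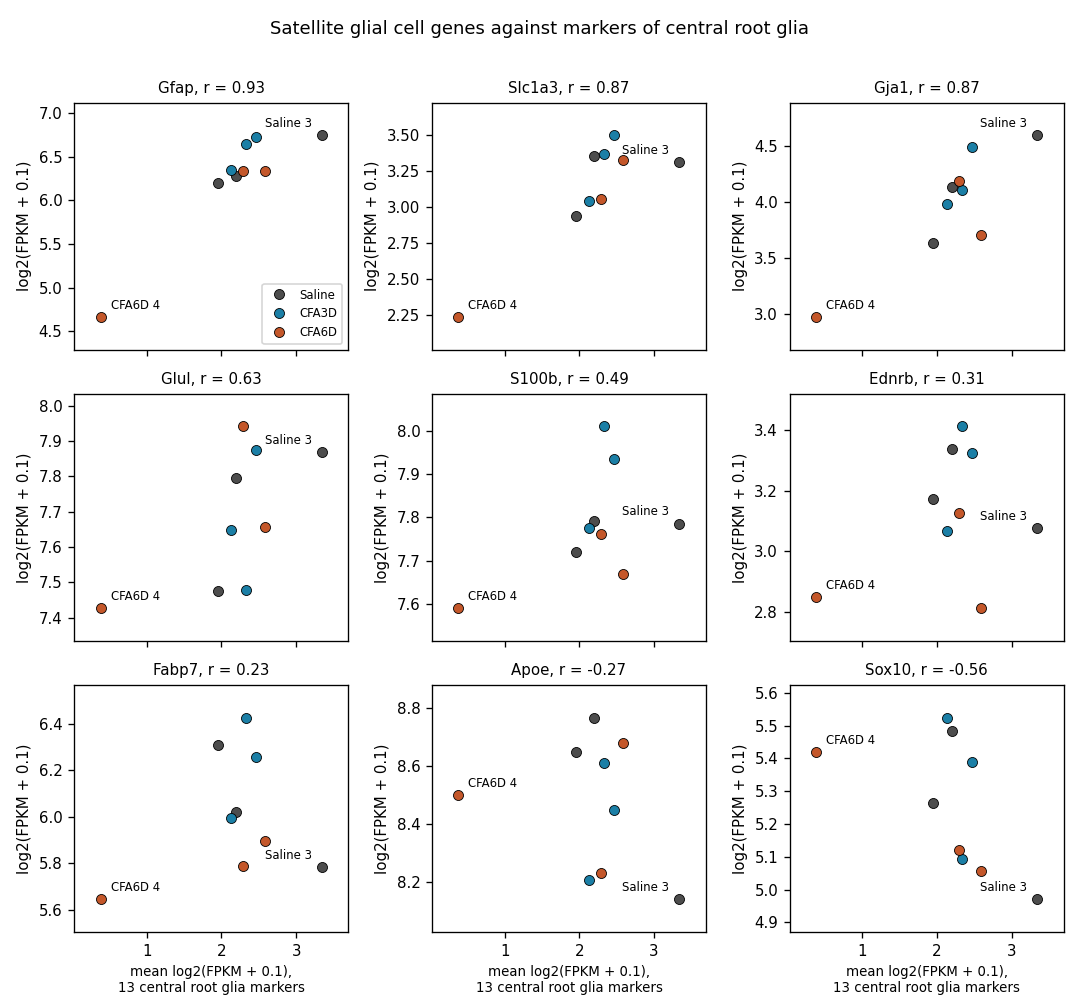
Level of each gene on the log2(FPKM + 0.1) scale (y axis) against the mean level of 13 central root glia markers (x axis, same scale), 1 point a library, coloured by group, with Pearson's r over 9 libraries. Gfap, Slc1a3 and Gja1 have an r of 0.87 to 0.93, with CFA6D replicate 4 at the lower left, while Fabp7, Apoe and Sox10 have no such slope.

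With both of these libraries left out, a choice made after seeing the data, the members split. Gfap and Gja1 had their lowest value in CFA6D replicate 4 and their highest in Saline replicate 3. Their upward move against saline therefore follows from which values were removed. On CFA6D against saline, Gfap (0.10), Gja1 (0.07), Slc1a3 (0.04) and Glul (0.16) had log2 fold changes above 0. Fabp7 (-0.32, limma adjusted p = 0.539), Ednrb (-0.29, adjusted p = 0.594), Sox10 (-0.29, adjusted p = 0.565) and Apoe (-0.25, adjusted p = 0.673) kept values below 0 and S100b had -0.04, which was also the median of the 9. On CFA3D against saline, Gfap then had a log2 fold change of 0.33 (limma adjusted p = 1), the only member called. On CFA6D against CFA3D, Fabp7 had -0.38 (adjusted p = 0.679) and remained called, and Ednrb (adjusted p = 0.709) and S100b (adjusted p = 0.714) did not. Among all gene sums in that fit, 2.8% rose on CFA3D and 3.22% fell on CFA6D against CFA3D.

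**Figure D5:**
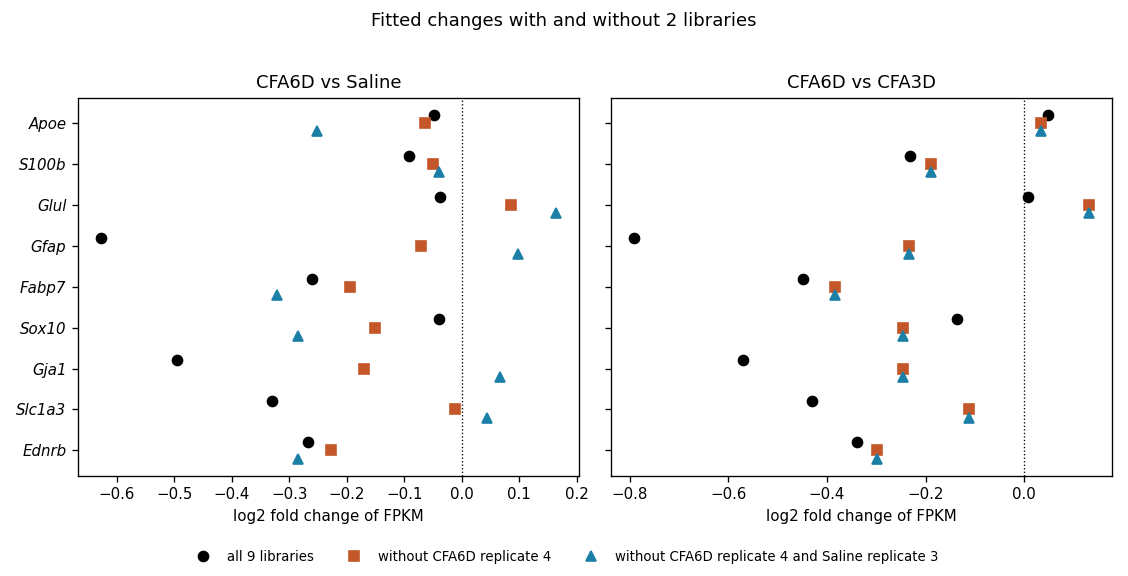
Fitted log2 fold change of FPKM (x axis) of each gene on CFA6D against saline (left) and against CFA3D (right), with all 9 libraries, without CFA6D replicate 4, and without that library and Saline replicate 3. Gfap moves from -0.63 to -0.07 and then to 0.10 against saline, while Fabp7 has -0.26, -0.19 and -0.32.

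The 9 genes had 45 transcripts in the mRNA table and none in the lncRNA or other noncoding tables, and 35 passed the same filter. A single protein-coding transcript held most of the sum for Fabp7 (Fabp7-201, 94.99%), Gfap (Gfap-201, 95.6%), Gja1 (Gja1-201, 94.8%), Glul (Glul-201, 94.5%) and Sox10 (Sox10-203, 86.8%), and S100b had only S100b-201. Ednrb was split between Ednrb-203 with 47.9% and Ednrb-201 with 45.3%. Slc1a3 was split between Slc1a3-202, a transcript with a retained intron (37.8%), and the protein-coding Slc1a3-201 (34.1%). Both had their lowest value in CFA6D replicate 4, with 1.76 and 1.55 FPKM against at least 2.60 and 2.49 FPKM in the other libraries.

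Apoe was spread over Apoe-205 (50.2%), Apoe-206 (31.4%) and the retained-intron transcript Apoe-211 (10.1%). Apoe-211 had 113 FPKM in CFA3D replicate 3 and 18.8 to 35.8 FPKM in the other 8 libraries, and its fall on CFA6D against CFA3D (log2 fold change -1.19, SE 0.45, limma adjusted p = 0.918) was smaller without that library, at -0.57, and still called. The call of Apoe-211 was lost without CFA6D replicate 4 (-1.21), replicate 5 (-1.24) or replicate 6 (-1.11). Fabp7-201 (-0.45, adjusted p = 0.918) and S100b-201 (-0.23, adjusted p = 0.918) fell on CFA6D against CFA3D as their gene sums did. Over all 35 transcripts, 0 rose and 3 fell on CFA3D, 1 rose and 0 fell on CFA6D, and 2 rose and 5 fell on CFA6D against CFA3D at an unadjusted p under 0.05. Among all 66562 transcripts tested, 4.68%, 6.81% and 5.42% passed in either direction. The transcript that rose on CFA6D was Glul-204 (log2 fold change 1.14, limma adjusted p = 0.58). Those that fell on CFA3D were Apoe-210 (-3.52), Apoe-208 (-2.37) and Sox10-202 (-0.88), each with limma adjusted p = 0.989. Apoe-210 rose on CFA6D against CFA3D (3.59, adjusted p = 0.918). These are minor forms named here after their values were seen. No member transcript passed adjustment in limma. FPKM of overlapping transcripts are estimates of how shared reads divide, so shifts between forms of Apoe, Ednrb and Slc1a3 are uncertain.

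Of 20 other genes known from satellite glia, such as the potassium channel Kcnj10, 0 rose and 0 fell in all 3 comparisons, with medians of -0.01, -0.10 and -0.05 on the log2 scale. The share of all gene sums that rose was 3.65% on CFA3D and 8.22% on CFA6D, and the share that fell was 0.801% and 2.85%. Between the CFA times 3.06% rose and 4.34% fell. These shares also stand beside the counts of the lists below.

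Around the transport of glutamate, 15 genes were read. On CFA3D 1 rose and on CFA6D 3 rose, with none falling, where 3.65% and 8.22% of all gene sums rose. Slc1a4, a carrier of neutral amino acids, rose on both (0.25, limma adjusted p = 0.997, and 0.30, adjusted p = 0.347), and Got2, the mitochondrial aspartate aminotransferase, rose on CFA6D from 44.3 to 52.4 FPKM in saline to 59.3 to 65.8 FPKM (0.37, adjusted p = 0.156). Slc38a2, a glutamine carrier and the most abundant of them at 88.3 FPKM, had 0.15 and 0.31 with adjusted p = 0.997 and adjusted p = 0.709.

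Among 12 connexin, pannexin and junction genes beside Gja1, 1 rose and 1 fell on CFA6D, and 0 of 12 passed on CFA3D. The gene that fell was Gjc3, connexin 29 of satellite and Schwann cells. It had 26.4, 22.8 and 23.5 FPKM in saline, 22.7, 22.0 and 25.9 FPKM on CFA3D, and 18.7, 21.1 and 18.4 FPKM on CFA6D, below every other library. Its log2 fold change was -0.32 against saline (SE 0.10, limma adjusted p = 0.253) and -0.28 against CFA3D (adjusted p = 0.641).

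For the endothelin pathway of Ednrb, 8 genes were read and 1 fell on CFA3D, none passed on CFA6D, and 2 fell on CFA6D against CFA3D. The ligand Edn1 had 0.36, 0.65 and 0.42 FPKM on CFA3D and 0.19, 0.26 and 0.16 FPKM on CFA6D (log2 fold change -0.91, limma adjusted p = 0.622). Edn2, another ligand, had 0.46, 0.39 and 0.52 FPKM on CFA3D and 0.19, 0.33 and 0.19 FPKM on CFA6D (-0.75, adjusted p = 0.641). Both ligands were thus low in these ganglia, and both overlapped saline. Ecel1 fell on CFA3D (-1.87, adjusted p = 0.997) with 2.19 FPKM in Saline replicate 3 and at most 0.34 FPKM in the other 2 saline libraries. Without Saline replicate 3 its log2 fold change was -1.03, which was not called. The processing enzyme Ece1, at 17.2 FPKM, had -0.15 and 0.12 against saline.

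Of 17 lipid carrier and receptor genes around Apoe and Fabp7, 0 rose and 2 fell on CFA3D, and 2 rose and 1 fell on CFA6D. Apoc1, a small apolipoprotein gene next to Apoe, fell on CFA3D (-1.60, limma adjusted p = 0.997) and CFA6D (-1.15, adjusted p = 0.402), with 5.57 FPKM in Saline replicate 2 and 1.84 and 1.80 FPKM in the other saline libraries. Lpl fell on CFA3D (-1.52, adjusted p = 0.997) and was likewise highest in Saline replicate 2, with 9.16 FPKM. Sorl1 had 0.29 on CFA6D against saline (adjusted p = 0.418) and Apod, at 525 FPKM the most abundant, had -0.31 (adjusted p = 0.686). Of 13 genes of the S100 family and its receptor, 0 passed on CFA3D and 2 rose on CFA6D. S100a8 of neutrophils had 901 FPKM in CFA6D replicate 6 and 8.45 to 44.99 FPKM elsewhere, S100a9 of the same cells had 1024 FPKM in that library, and the receptor gene Ager rose from 0.39 to 0.55 FPKM in saline to 0.67 to 0.77 FPKM on CFA6D (0.50, adjusted p = 0.429).

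Among 19 transcription factors of neural crest and glia, 2 rose on CFA3D, and 2 rose and 1 fell on CFA6D. Hes1, an effector of Notch signalling, moved in both directions. It had 5.09, 3.92 and 4.11 FPKM in saline, 6.61, 6.62 and 5.15 FPKM on CFA3D and 3.46, 3.16 and 3.02 FPKM on CFA6D, and no pair of groups overlapped. Its log2 fold change was 0.48 on CFA3D (limma adjusted p = 0.997), -0.42 on CFA6D (adjusted p = 0.318) and -0.90 between them (adjusted p = 0.346). Zeb2 rose on CFA3D (0.19, adjusted p = 0.997), Nfia (0.22, adjusted p = 0.432) and Egr2 (1.27, adjusted p = 0.444) rose on CFA6D, and Pou3f2 fell on CFA6D against CFA3D (-0.42, adjusted p = 0.641).

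Of 21 genes known to rise in reacting glia and injured ganglia, 5 rose on CFA3D and 5 on CFA6D, and none fell. The share of all gene sums that rose was 3.65% on CFA3D and 8.22% on CFA6D, and 0.801% and 2.85% fell. Jun, a transcription factor of injured neurons and Schwann cells, had 19.2, 18.7 and 18.8 FPKM in saline, 21.7, 24.8 and 23.5 FPKM on CFA3D and 27.3, 24.8 and 26.7 FPKM on CFA6D. Both CFA groups lay above saline, by 0.30 (limma adjusted p = 0.997) and 0.47 (adjusted p = 0.0861) on the log2 scale. Cd44, a receptor for hyaluronan, rose by 0.24 (adjusted p = 0.997) and 0.41 (adjusted p = 0.157), the protease inhibitor gene Serpina3n by 0.43 (adjusted p = 0.997) and 0.33 (adjusted p = 0.339), and the heat shock gene Hspb1 by 0.26 (adjusted p = 0.997) and 0.24 (adjusted p = 0.389). S1pr3 rose on CFA3D (0.33, adjusted p = 0.997) and Stat3 on CFA6D (0.26, adjusted p = 0.225), and Socs3 fell on CFA6D against CFA3D (-0.62, adjusted p = 0.641). Several of these genes are also used by neurons and Schwann cells, so their rise is not a measure of satellite glia.

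Markers of other cells gave the following counts in the comparisons with saline. Beside them, 3.65% of all gene sums rose and 0.801% fell on CFA3D, and 8.22% rose and 2.85% fell on CFA6D. Of 14 Schwann cell myelin genes, 0 passed on CFA3D and 1 fell on CFA6D, which was Ugt8a (-0.37, limma adjusted p = 0.21). Of 14 sensory neuron genes, 2 rose on CFA3D and 5 on CFA6D, among them Rbfox3 (0.67, adjusted p = 0.106), Pou4f1 (0.56, adjusted p = 0.103), Nefm (0.60, adjusted p = 0.27) and Nefh (0.34, adjusted p = 0.43), and Scn10a rose on CFA3D (0.39, adjusted p = 0.997). Without CFA6D replicate 4 and Saline replicate 3, 2 of the 14 neuron genes rose on each of CFA3D and CFA6D. Rbfox3 (0.71) and Pou4f1 (0.50) then remained called on CFA6D, and Nefm (0.45), Nefh (0.21) and, on CFA3D, Scn10a (0.23) were not. Isl1 fell on CFA6D against CFA3D (-0.28, adjusted p = 0.666). Of 12 macrophage genes, 0 passed on CFA3D and 1 fell on CFA6D, which was C1qc (-0.50, adjusted p = 0.446), beside C1qa (-0.57, adjusted p = 0.452). Of 13 central root glia genes and of 11 endothelial genes none passed at either time, with Rgs5 as the most abundant of the endothelial genes at 15.7 FPKM. Of 11 fibroblast genes, 3 fell on CFA6D, among them Lum (-0.49, adjusted p = 0.239), and Ogn fell on CFA6D against CFA3D (-0.42, adjusted p = 0.641), while Ptgds, the most abundant, ranged from 170 to 1662 FPKM. Of 12 pituitary, muscle and blood genes none passed, with medians of -2.17 and -0.50.

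Of 14 genes that glucocorticoids are known to raise, 0 rose on CFA3D and 8 rose on CFA6D. Among all gene sums, 3.65% and 8.22% rose. This list was chosen with earlier results of these data known, so its counts are description only. The CFA6D libraries had 69.4, 79.1 and 63.0 FPKM of Ddit4 against 16.9 to 26.3 FPKM in saline (1.66, limma adjusted p = 0.0729). Sgk1 (1.22, adjusted p = 0.156), Nfkbia (1.15, adjusted p = 0.103), Per1 (1.11, adjusted p = 0.201), Pdk4 (0.86, adjusted p = 0.34), Errfi1 (0.78, adjusted p = 0.263), Tsc22d3 (0.73, adjusted p = 0.437) and Klf9 (0.53, adjusted p = 0.372) rose as well, and Mt2, the most abundant at 373 FPKM, had -0.13 (adjusted p = 0.88). The members stood in the same libraries with 0 of 9 past the threshold against saline, and the part of these genes in the lower Fabp7, Ednrb and S100b on CFA6D was not tested.

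The counts of the other lists were also taken without CFA6D replicate 4 and Saline replicate 3 together, a choice made after seeing the data. The 20 other satellite glial genes then gave 1 that rose and 0 that fell on CFA3D, and 2 that rose and 2 that fell on CFA6D. Of the 13 central root glia genes, 3 rose on CFA3D and 4 on CFA6D, where none had with all libraries. The mean level of these markers was highest in Saline replicate 3 and lowest in CFA6D replicate 4. Their upward move against saline therefore follows from which values were removed, and no result is drawn from it. Of the 15 glutamate transport genes, 0 rose on CFA3D and 1 on CFA6D, which was Got2 (0.35), while Slc1a4 (0.24 and 0.22) was not called. Of the 21 genes of reacting glia, 3 rose at each time, and Jun kept its calls (0.30 and 0.44). Serpina3n remained called on CFA3D (0.38) and not on CFA6D (0.23), Cd44 on CFA6D (0.38) and not on CFA3D (0.18), and Hspb1, S1pr3 and Stat3 were not called. Of the 14 glucocorticoid genes, 5 rose on CFA6D, and Pdk4 (0.56), Tsc22d3 (0.41) and Klf9 (0.44) were not called. Hes1 kept its 3 calls (0.44, -0.52 and -0.95), and Gjc3 was called against saline (-0.31) and not against CFA3D (-0.25). On CFA6D against saline Apoc1 (-1.17), Ager (0.54), Egr2 (1.46), Nfia (0.28) and C1qc (-0.36) lost their calls, as did Zeb2 on CFA3D against saline (0.20) and Edn2 on CFA6D against CFA3D (-0.65). Over all gene sums, 2.80% rose and 1.3% fell on CFA3D in that fit, and 7.13% rose and 3.04% fell on CFA6D.

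Among the gene sums whose pattern over the 9 libraries was most like the mean log2 level of the members, out of 13166 that averaged 1 FPKM or more, were Rps3a1 (Pearson r = 0.99), Gng12 (0.97), Rps25 (0.97) and Npc2 (0.96). These 4 were lowest in CFA6D replicate 4, for example Rps3a1 with 141 FPKM against 166 to 197 FPKM. For single members, the most like were Nkx2-9 for Gfap (r = 0.99), Aox3 for Gja1 (0.98), Dpy19l1 for Slc1a3 (0.98), Mrpl3 for S100b (0.97), Trmt10b for Ednrb (0.97), Cd82 for Sox10 (0.96), Col18a1 for Glul (0.96), Cox7b for Fabp7 (0.95) and Cradd for Apoe (0.91). Nkx2-9 had 0.12 FPKM in CFA6D replicate 4 and 1.17 to 3.32 FPKM in the other libraries, the same low library as Gfap. These likenesses were taken over 9 points from 13166 genes and are given as description only.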

How the data were processed

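Ribo-depleted, strand-specific total RNA of mouse TG (9 libraries, 3 a group) was sequenced in pairs. Separate tables for mRNA, lncRNA and the remaining noncoding transcripts hold the FPKM that the authors deposited, so the values are normalised for length and depth and are not counts. Per the study's methods reads were trimmed, mapped to GRCm38 and counted per gene in CLC Genomics Workbench, while the submitters' processing notes name Bowtie 0.12.2 and mm8. Which of these gave the FPKM of transcripts is not given in the sources used here. Of 102122 mRNA transcripts 101539 matched GENCODE M21 (GRCm38), and their FPKM were summed by gene name.

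Gene sums averaging 0.1 FPKM or more entered the test on log2(FPKM + 0.1) in limma 3.58.1 (R 4.3.3, trend in the mean, two-sided) with all 9 libraries in 1 fit of 3 groups. Calls used an unadjusted p under 0.05, with Benjamini-Hochberg adjustment over all gene sums. Fold changes on this scale understate those of genes with low values. Pools of 3 mice are the replicates, and p-values measure the spread between pools. Depth was read from the smallest FPKM steps, and counting error only is covered by the value given. The steps of the fit were tested on simulated data.

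The members and all gene lists were chosen with earlier results of these data known. Named in the text are the 9 members, their transcripts holding at least 10% of the sum, listed genes with p under 0.05 and no overlap between those groups, the most abundant gene of each list, and the gene sums most like the members. Some genes that this rule names are not reported here. Alternatives were pseudocounts of 0.01 and 1, a filter at 1 FPKM and none, quantile normalization, only the groups compared, the most abundant transcript, the noncoding tables added, a replicate block, each library left out, and, chosen after seeing the data, only protein-coding transcripts 2 libraries left out together (members and lists), and group means removed from the correlation. RefSeq start regions came from GRCm38.p6. Python 3.11.15 and scipy 1.17.1 were used.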

Additional observations from a re-analysis of the deposited data

Results flagged for a closer look

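In all, 3 members differed between the CFA times in limma by the unadjusted p, and none did after adjustment over all gene sums. Fabp7 differed by a log2 fold change of -0.45 (adjusted p = 0.632), with all 3 CFA6D libraries below all 3 CFA3D libraries. Ednrb differed by -0.34 (adjusted p = 0.641), with libraries that overlapped. S100b differed by -0.23 (adjusted p = 0.651), with libraries that did not overlap. The comparison of CFA6D with CFA3D is itself the test of the difference between their changes against the shared saline libraries. Single libraries were not tested as outlying within the groups of 3.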

How the results depend on the processing

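Of the counts of members called, the counts of named transcripts called and the medians of the members, 141 values under alternatives stayed close to those reported and 20 moved. With quantile normalization, 2 members passed on CFA6D against saline (Fabp7 and Ednrb, both lower), where 12.3% of all gene sums passed and 6.12% were lower, S100b lost its call between the CFA times (adjusted p = 0.602), and Gja1 (-0.0094) and Gja1-201 (-0.033) on CFA3D, Sox10-203 on CFA6D (-0.033) and Glul-201 on CFA6D against CFA3D (0.079) changed sign. With only the groups compared, 1 named transcript passed on CFA6D (Apoe-211), while between the CFA times Apoe-211 lost its call and Sox10-204 (-0.58) gained one. With the most abundant transcript in place of the sum, Apoe (0.084) and Sox10 (0.055) on CFA6D and Glul on CFA6D against CFA3D (-0.018) changed sign, and Ednrb lost its call (adjusted p = 0.735). With protein-coding transcripts only, Sox10 on CFA6D (0.039) and Glul on CFA6D against CFA3D (-0.013) changed sign.

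Without CFA6D replicate 4 and Saline replicate 3 together, 1 member passed on CFA3D (Gfap), where 2.8% of all gene sums rose. Between the CFA times 1 member passed (Fabp7, lower), where 3.22% of all gene sums fell. On CFA3D Glul (0.032) and Sox10 (-0.039) changed sign. On CFA6D the median was -0.039, and Glul (0.16), Gja1 (0.066), Slc1a3 (0.045) and Gfap (0.098) changed sign.

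Leaving out each library in turn, the members called numbered 0 to 2 on CFA6D and 0 to 5 on CFA6D against CFA3D, with 8.92% to 12.4% and 5.05% to 8.39% of all gene sums called, the median on CFA6D ran from -0.27 to -0.071, and the named transcripts called numbered 0 to 1 on CFA3D, 0 to 2 on CFA6D and 0 to 5 on CFA6D against CFA3D. These log2 fold changes crossed 0. On CFA3D they were Apoe (-0.29 to 0.028), Ednrb (-3.9e-05 to 0.17), Gja1 (-0.17 to 0.31), Glul (-0.16 to 0.049), Slc1a3 (-0.031 to 0.23), Sox10 (-0.039 to 0.22), Apoe-205 (-0.66 to 0.20), Gja1-201 (-0.19 to 0.31), Glul-201 (-0.17 to 0.041), Slc1a3-202 (-0.083 to 0.23) and Sox10-204 (-0.39 to 0.15). On CFA6D they were Apoe (-0.24 to 0.076), Glul (-0.17 to 0.086), Sox10 (-0.18 to 0.082), Apoe-205 (-0.43 to 0.43), Apoe-206 (-0.22 to 0.023), Ednrb-201 (-0.28 to 0.044), Glul-201 (-0.20 to 0.060), Slc1a3-201 (-0.41 to 0.16), Slc1a3-202 (-0.47 to 0.050) and Sox10-203 (-0.056 to 0.18). On CFA6D against CFA3D they were Apoe (-0.060 to 0.17), Glul (-0.13 to 0.13), Apoe-206 (-0.066 to 0.24), Ednrb-201 (-0.16 to 0.17), Glul-201 (-0.15 to 0.11) and Sox10-203 (-0.20 to 0.0065). None of these had been called. The cause of these shifts was not tested.

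With the replicate number as a block on CFA3D against saline, 0 members passed and the median stayed at 0.10. Same-numbered libraries did not deviate together (correlations of 0.087, -0.080 and 0.030), so the block pairs numbers only. No paired analysis was possible for CFA6D because its numbers 4 to 6 are not shared with the other groups. Depth was not the limit for any member, but with 3 pools a group the intervals were wide, above all for Gfap and Gja1. CFA6D replicate 4 added to the spread that all comparisons share. Without that library the SE on CFA3D against saline was 0.155 beside 0.393 for Gfap, and 0.245 beside 0.317 for Gja1.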
